A study of Mus musculus with 8 samples.

Results

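The regions described here are 2679 promoter sites at which FGFR1 was found after retinoic acid (RA) treatment and at which neither FGFR1 before treatment nor its partners RXR and Nur77 after treatment had a peak. They were chosen by their peaks, in 4 steps. Of the 14082 FGFR1 peaks of the second RA library (replicate 2), 11885 lay in a proximal promoter, that is, they shared at least 20 bp with a window of 1000 bp to either side of an annotated transcript start. Of these, 7355 overlapped a peak of the first RA library (replicate 1) by at least 1 bp. FGFR1 in LIF had no peak at 4829 of them, RXR in RA had none at 3440 of those, and Nur77 in RA had none at the remaining 2679, which are called FGFR1-alone promoter peaks below. They were 36.4% of the reproduced promoter peaks and 19% of all replicate 2 peaks, and the 8 peak lists of the series together hold 176687 peaks.

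The study compared the chromatin targets of nuclear FGFR1, RXR and Nur77 by ChIP-seq (chromatin immunoprecipitation with sequencing) before and after neuronal differentiation. The cells were E14Tg2a, a mouse embryonic stem cell line, at passages 37 to 40. The ESC libraries came from cultures with leukemia inhibitory factor (LIF), which holds off differentiation. For the neuronal cell (NC) libraries LIF was withdrawn and RA given at 1 µM, with harvest after 48 h. FGFR1, RXR and Nur77 had 1 library each in LIF, RXR, Nur77 and the histone variant H3.3 had 1 each in RA, and FGFR1 in RA had 2, the later of them named a second experiment in its title. Cells of several plates were pooled for a chromatin preparation, so a library does not stand for 1 plate. No source says whether the FGFR1 RA libraries came from separate cultures, and the spread between them may be technical.

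FGFR1 is a receptor tyrosine kinase for fibroblast growth factors, and a form of it is also found in the nucleus. RXR is the obligate partner of the retinoic acid receptors (RARs), which bind RA and act on target genes through paired copies of a short core word, and Nur77 is an orphan nuclear receptor that binds as a monomer or together with RXR. H3.3 replaces other H3 histones outside replication and is common at the promoters of active genes.

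Sequences are shown first because the members differ in what lies at their summits. Each summit, the position with the most fragments in a peak, was given a window of 100 bp, which was searched on both strands for 13 words that are core binding letters of promoter factors. The windows below are from the strongest members, ranked by the lower of their 2 percentile ranks of −log10 p, that hold at least 1 such word and no annotated untranslated or non-coding exon. They are read 5′ to 3′ from the plus strand of mm10 (GRCm38), and the capitals mark the words.
Tssk6 window, chr8:69901520-69901619, plus strand: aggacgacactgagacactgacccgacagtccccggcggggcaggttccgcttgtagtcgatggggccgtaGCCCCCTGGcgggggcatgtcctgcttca
Sp1 window, chr15:102405533-102405632, plus strand: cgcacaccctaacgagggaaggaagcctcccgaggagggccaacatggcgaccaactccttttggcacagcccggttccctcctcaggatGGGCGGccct
Tdrd3 window, chr14:87415930-87416029, plus strand: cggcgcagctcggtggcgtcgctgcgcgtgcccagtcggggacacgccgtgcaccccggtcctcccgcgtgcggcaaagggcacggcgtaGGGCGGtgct
Snhg5 window, chr9:88522936-88523035, plus strand: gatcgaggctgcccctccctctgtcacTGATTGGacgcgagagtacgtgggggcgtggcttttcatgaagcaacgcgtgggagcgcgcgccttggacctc
Mapkapk5 window, chr5:121546002-121546101, plus strand: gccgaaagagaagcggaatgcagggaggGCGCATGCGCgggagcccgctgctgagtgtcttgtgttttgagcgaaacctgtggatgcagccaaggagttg
Fzd7 window, chr1:59482139-59482238, plus strand: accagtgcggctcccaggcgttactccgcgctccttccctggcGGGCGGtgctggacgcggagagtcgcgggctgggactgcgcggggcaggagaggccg
Slc3a2 window, chr19:8723374-8723473, plus strand: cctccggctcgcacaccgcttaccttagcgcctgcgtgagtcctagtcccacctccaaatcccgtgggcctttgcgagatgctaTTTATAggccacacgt
Phf8 window, chrX:151520547-151520646, plus strand: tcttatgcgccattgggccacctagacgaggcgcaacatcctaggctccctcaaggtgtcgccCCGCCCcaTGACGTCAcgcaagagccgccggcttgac

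The capitals in these windows are the GC box GGGCGG of SP and KLF factors at Sp1, Tdrd3, Fzd7 and Phf8 (on the minus strand it reads CCGCCC), the NRF1 word CGCATGCGC at Mapkapk5, where matches on both strands overlap by all but 1 base, and the cAMP response element TGACGTCA beside a GC box at Phf8. Snhg5 holds the NFY word CCAATCA, Slc3a2 holds the TATA box TATAAA and the Tssk6 window holds the CTCF word CCAGGGGGC, all of them on the minus strand. In the Tssk6 window the summit lay in coding sequence, and in the other 7 outside all annotated transcripts. The Tssk6 summit lay upstream of the nearest annotated start, and the gene to which this coding sequence belongs was not determined. The peak bears the name of Tssk6, which encodes a testis kinase, by the naming rule alone. It also lies in the promoter window of Ndufa13, which encodes a subunit of respiratory complex I.

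A longer motif was looked for after the strongest members had been seen, because Cyp26a1 and Rarb, textbook target genes of the RARs, stood among them. It is the direct repeat 5 (DR5), a pair of nuclear receptor core words in the same direction with 5 bases between them, and it was searched on both strands, with either of the usual letters at the variable places of the core word. Within the bounds of the peaks, 2 of the 2679 members held it, 0.0747% (95% exact binomial interval 0.00904 to 0.269), and these were Cyp26a1 and Rarb. Capitals mark the core words.
Cyp26a1 DR5, chr19:37697776-37697792, minus strand: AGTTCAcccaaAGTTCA
Rarb DR5, chr14:16575513-16575529, minus strand: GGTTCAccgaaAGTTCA

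Only 1 other of all 11885 replicate 2 promoter peaks held a DR5. It lay at Cbr1, where Nur77 had a peak in RA, so that this peak is not a member. In windows of 300 bp around the summit, a length at which classes can be compared, a DR5 was found at 0.0747% of members, at 0.0421% of all replicate 2 promoter peaks and at 0.0761% of 132666 distinct transcript starts. The DR5 was thus no more common among members than at starts in general. A direct repeat with 1 base between the core words (DR1) was found in 15 of the 2679 windows, 0.560% (0.314 to 0.922), against 0.320% of all replicate 2 promoter peaks and 0.241% of starts. With 2 bases between them (DR2) it was found in none of the members, and a count of 0 in 2679 allows a share of up to 0.138% at the upper end of its interval. The other reproduced classes held none either. A DR2 was found at 0.0168% of all replicate 2 promoter peaks and at 0.173% of starts, so its absence is not particular to members. A match in these letters is a description and shows no binding.

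At Cyp26a1, the gene of the enzyme that degrades RA, the DR5 ended 6 bp upstream of the nearest transcript start and lay on the strand opposite to the gene. Its member peak, the fifth by rank, had 94 fragments at the summit in replicate 2 and 36 in replicate 1. The nearest RXR peak in RA lay 4404 bp away. RXR in LIF and H3.3 in RA did have a peak over it. At Rarb, which encodes RARβ, the DR5 lay on the strand of the gene, with its near end 14 bp downstream of the nearest annotated start. The Rarb peak had a −log10 p of 54.2 with 56 fragments in replicate 2 and of 24.3 with 20 fragments in replicate 1. Here the word "alone" depends on the overlap. A Nur77 peak in RA lay 63 bp from the Rarb member and an RXR peak in RA 338 bp from it.

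The depth behind the lists differed. The lists give no fragment totals, but a whole number of fragments at each summit and a background could be solved from the deposited fold and −log10 p. The background ran from 1.27 fragments per kb for H3.3 to 7.09 for RXR in LIF. It was 2.71 for FGFR1 in LIF, 4.16 and 6.78 for FGFR1 in RA replicates 1 and 2, 1.87 for RXR in RA and 3.82 for Nur77 in RA. A called peak held at least 5 fragments at its summit in the FGFR1 LIF list, 4 in the RXR RA list and 5 in the Nur77 RA list, so absence of a peak means that this number was not reached clearly enough, not that the factor was absent. According to the study's methods no control library entered the peak calls. Enrichment of open promoter chromatin in general and binding of FGFR1 cannot be told apart in such lists.

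**Figure D1:**
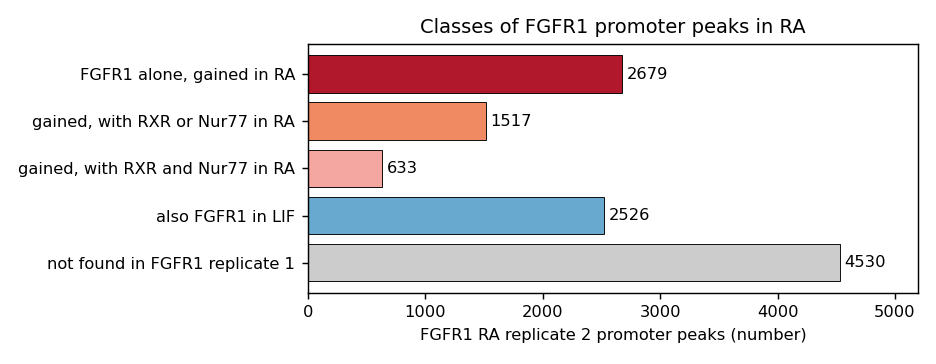
Number of FGFR1 RA replicate 2 promoter peaks (bar length, horizontal axis) in 5 classes that do not overlap. The red bar, the 2679 FGFR1-alone peaks, is longer than the 1517 gained with RXR or Nur77 and the 633 gained with both, and near the 2526 that had FGFR1 in LIF too; 4530 were not found in replicate 1.

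The members were compared with 3 other classes of reproduced promoter peaks: 1517 that were gained in RA with a peak of RXR or of Nur77 in RA, 633 gained with both, and 2526 at which FGFR1 had a peak in LIF too. A further 4530 replicate 2 promoter peaks were not found in replicate 1. The plot of class sizes shows that FGFR1-alone peaks were the largest of the 4 reproduced classes. The values that chose the members are given as a description. Members had a median −log10 p of 21.2 in replicate 2, from 5.84 to 145.9, and of 11.5 in replicate 1, from 5.12 to 45.9. The median was 37.1 in replicate 2 and 16.5 in replicate 1 for peaks with FGFR1 in LIF. A median member held 28 fragments at its summit in replicate 2 and 11 in replicate 1, at a fold over background of 8.61 and 7.32. Its median width was 322 bp in replicate 2.

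**Figure D2:**
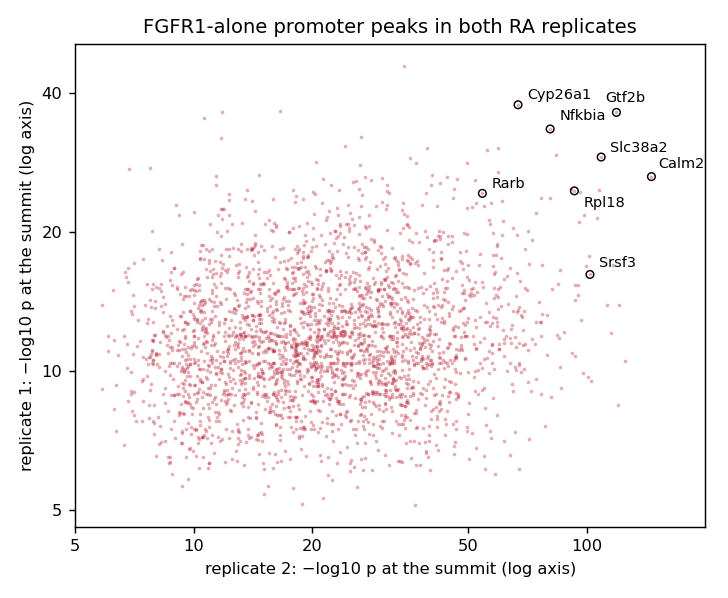
Each of the 2679 FGFR1-alone promoter peaks by its deposited −log10 p in replicate 2 (horizontal, log axis) and that of the strongest replicate 1 peak it overlaps (vertical, log axis), with 8 named members circled. The cloud is nearly round (Spearman correlation of 0.113), and Gtf2b, Cyp26a1 and Nfkbia stand high in both libraries.

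Among members, strength in one replicate said little of strength in the other. Across the 2679 members the −log10 p values of the replicates had a Spearman correlation of 0.113, and in peaks with FGFR1 in LIF it was 0.250 (n = 2526). These correlations run across peaks of the same 2 libraries, which are not independent replicates. Peaks of both classes had to be called in each replicate, and the part of this choice in the low values was not tested. The plot of both replicates shows members that were strong in replicate 2 only. Acly, which encodes ATP citrate lyase, had a −log10 p of 119.9 in replicate 2 and 8.45 in replicate 1. The reverse was seen at Triap1, a p53 target gene, with 34.3 in replicate 2 and the highest replicate 1 value of all members, 45.9. Both genes were picked after their values were seen. The summits of the replicates lay within 100 bp of each other at 70.5% of members, with a median distance of 59 bp.

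The strongest members in both replicates lay at genes of several kinds. Gtf2b, which encodes the general transcription factor TFIIB, ranked highest, with a −log10 p of 119 and 111 fragments in replicate 2 and 36.4 and 25 fragments in replicate 1. Its peak ran over chr3:142765034-142765446, and the nearest FGFR1 LIF peak was 63835 bp away. Nfkbia, the gene of the NF-κB inhibitor IκBα, followed with 80.6 and 33.5 in replicates 2 and 1. Both peaks had their summits in untranslated exons.

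Sptan1, which encodes the spectrin αII chain of the cell cortex, had a −log10 p of 83.5 in replicate 2 and 29.4 in replicate 1. Slc38a2, an amino acid transporter gene, had 109 and 29.1, and Calm2, a calmodulin gene, had the highest replicate 2 value of all members, 145.9, with 26.4 in replicate 1. The Calm2 member was not remote from LIF binding, since an FGFR1 peak in LIF lay 157 bp from it. The same was true of Xpo1, the gene of the nuclear export receptor exportin 1, with a LIF peak at 229 bp and with 59.6 and 27.0. Of the 20 strongest members, Calm2 and Xpo1 were those with an FGFR1 LIF peak within 1000 bp, and Rpl13 and Rarb those with an RXR or Nur77 peak in RA within that distance.

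The others of the 20 were Sdc4, which encodes the surface proteoglycan syndecan 4, Agbl5, a deglutamylase of tubulin, the ribosomal protein genes Rpl18 and Rpl13, Sephs2 of selenocysteine synthesis, Arhgap29, Eif3j1 of translation initiation, the H3K4 demethylase gene Kdm5b, the proton pump subunit gene Atp6v0c, the anchoring protein gene Akap13, Lrch4, Wipi1 of autophagy, Cyp26a1 and Rarb. Their −log10 p in replicate 2 ran from 54.2 at Rarb to 107 at Agbl5, and in replicate 1 from 22.0 at Rpl13 to 37.8 at Cyp26a1. In 16 of the 20 the summit lay in an untranslated exon.

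The label "FGFR1 alone" was then checked around the peaks. A peak of FGFR1 in LIF, of RXR in RA or of Nur77 in RA lay within 1000 bp of 616 members, 23.0%. The nearby peak was FGFR1 in LIF for 174 members (6.49%), RXR in RA for 319 (11.9%) and Nur77 in RA for 332 (12.4%). The members lay in the promoter windows of 2814 protein-coding genes, 12.8% of 21951. Of these genes, 1904 (67.7%) had no peak of the 3 lists in any of their windows, whereas 291 had one of FGFR1 in LIF, 482 of RXR in RA and 551 of Nur77 in RA elsewhere in a window. The remaining 910 genes are therefore FGFR1-alone at the peak and not at the promoter.

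The edges of the rule touched few members. A replicate 1 peak was shared over at most 20 bp by 68 members, and 60 peaks were left out although a replicate 1 peak lay less than 20 bp away. The member with the least such overlap, 1 bp, lay at Gm26569, and a replicate 1 peak touched the excluded peak at Taco1. The peak at Smc6 is a member although an FGFR1 LIF peak touches it, and the peak at Parg is not, since it shares 2 bp with one. Their replicate 2 −log10 p values were 31 at Smc6 and 28.2 at Parg. Likewise the peak at Trim7 touches an RXR RA peak without sharing a base and is a member, whereas that at Slc12a2 shares 3 bp with one and is not. The peak at Nisch shares 1 bp with a Nur77 RA peak and is not a member. The member with the least promoter overlap, 29 bp, lies at Supt20-ps, and 2 peaks were left out for an overlap of fewer than 20 bp, the larger of them 11 bp.

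The libraries that the rule did not use were compared next. They are H3.3 in RA, RXR in LIF and Nur77 in LIF. FGFR1-alone peaks carried less of each than the other reproduced classes. H3.3 had a peak at 242 of 2679 members, 9.03% (95% exact binomial interval 7.97 to 10.2), against 24.3% (22.2 to 26.6) of peaks gained with 1 of the receptors. It was 45.7% (41.7 to 49.6) for peaks gained with both receptors and 36.5% (34.7 to 38.5) for peaks with FGFR1 in LIF. Peaks not found in replicate 1 stood lower, at 2.58%. The share over all 11885 replicate 2 promoter peaks was 16.3%. Cyp26a1 and Wipi1 were the members with an H3.3 peak among the 20 strongest.

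RXR in LIF had a peak at 1298 members, 48.5% (46.5 to 50.4), against 83.1% (79.9 to 85.9) of peaks gained with both receptors and 82.1% (80.6 to 83.6) of those with FGFR1 in LIF. Over all replicate 2 promoter peaks it was 50.6%, so the members stood near that background. Nur77 in LIF had a peak at 532 members, 19.9% (18.4 to 21.4), against 49.9% (46.0 to 53.9) and 55.4% (53.4 to 57.3) in the same classes, and 26.5% over all replicate 2 promoter peaks. Peaks gained with 1 of the receptors stood between, at 68.8% (66.4 to 71.1) for RXR in LIF and 34.2% (31.8 to 36.7) for Nur77 in LIF. RXR or Nur77 in LIF had a peak at 1481 members, 55.3%, near the 56.2% of all replicate 2 promoter peaks. The members at which none of the 3 libraries had a peak numbered 1137, 42.4% (40.6 to 44.3), against 10.5% of peaks with FGFR1 in LIF and 42.0% of all replicate 2 promoter peaks, which include those not found in replicate 1. Each of these libraries is 1 sample, so the intervals speak of counting error alone, peaks near each other may depend on each other, and no test between classes was made. RXR and Nur77 in LIF used the antibodies of the lists that the rule excluded.

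**Figure D3:**
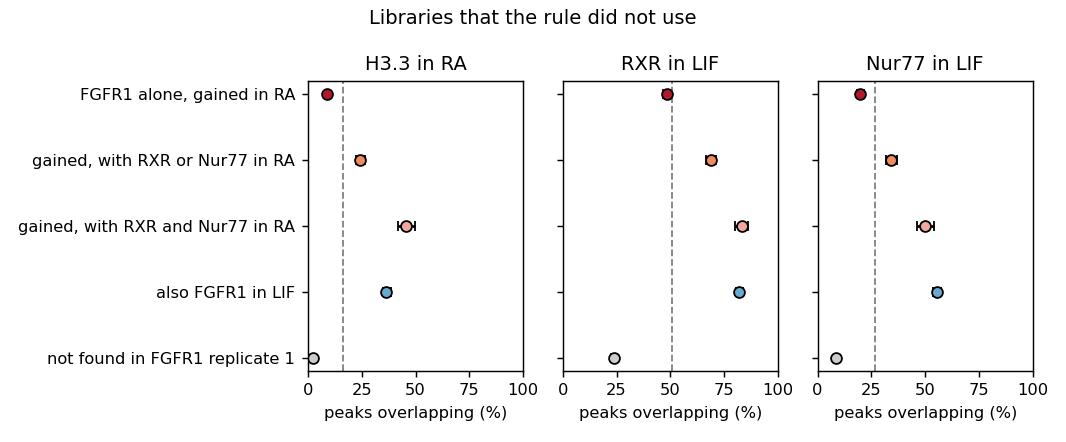
Share of peaks (horizontal axis, %) that overlap a peak of H3.3 in RA, RXR in LIF or Nur77 in LIF, for the 5 classes of FGFR1 RA replicate 2 promoter peaks (rows); bars are 95% exact binomial intervals and dashed lines the share over all 11885. FGFR1-alone peaks lie at 9.03%, 48.5% and 19.9%, below the other 3 reproduced classes and above the peaks not found in replicate 1.

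The members were also lowest of the reproduced classes within groups of like replicate 2 strength, by a split made after the shares had been seen. Replicate 1 strength was not matched, and its median over all groups was 11.5 for members and 16.5 for peaks with FGFR1 in LIF. The part of strength in these shares was not tested. All 7355 reproduced promoter peaks were divided at replicate 2 −log10 p values of 17, 27.2 and 40.8 into 4 groups of equal size. In the weakest of them H3.3 marked 8.01% (6.37 to 9.91) of members and 31.6% (26.1 to 37.5) of peaks with FGFR1 in LIF. In the strongest it marked 8.29% (5.70 to 11.6) of members and 37.2% (34.3 to 40.1) of those. Peaks gained with 1 of the receptors stood at 20.1% (16.5 to 24.1) in the weakest and 26.9% (21.6 to 32.8) in the strongest group. Across these groups the H3.3 share of members showed no steady course with replicate 2 strength. Members with H3.3 had a median −log10 p of 12.5 in replicate 1 against 11.5 for those without, and among members with at least 10 in both replicates H3.3 marked 10.6%. With RXR in LIF the members went from 41.1% in the weakest to 53.7% in the strongest group, below 75.1% and 83.8% of peaks with FGFR1 in LIF. For Nur77 in LIF they went from 16.8% to 22.7%, below 45.0% and 56.2%. Peaks gained with 1 of the receptors went from 61.7% to 72.3% with RXR in LIF and from 27.9% to 38.8% with Nur77 in LIF.

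These shares moved with the number of peaks admitted. With every list reduced to its 11378 strongest peaks, or all of them for H3.3, 870 members were left, of which 19.8% had H3.3, 22.5% RXR in LIF and 14.0% Nur77 in LIF. Over all promoter peaks of that setting the shares were 17.9%, 21% and 12.6%, so the members stood slightly above that background there and below it in the full lists. Reproduced peaks that were not members stood at 48.2%, 47.0% and 31.9%, above the members as before. Without FGFR1 RA replicate 1 the H3.3 share of the then 6470 members was 4.50%, and without replicate 2, with replicate 1 peaks in its place, it was 5.96% of 9215.

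Position was described by the distance from the summit to the nearest transcript start of any gene. Members sat close to the start, as did the replicate 2 promoter peaks in general. Of the 2679 summits, 70.7% (68.9 to 72.4) lay within 100 bp of a start and 87.2% (85.9 to 88.5) within 250 bp, against 69.1% and 86.5% of all replicate 2 promoter peaks, and the median member summit was 13 bp downstream. Downstream summits made up 59.4% (57.5 to 61.3), close to 58.7% of peaks with FGFR1 in LIF and 57.6% of all replicate 2 promoter peaks. The interval from the start to 100 bp downstream alone held 1276 summits, 47.6%. Untranslated exons held 47.5% of summits, coding sequence 13.8%, introns 13.5%, non-coding exons 6.91% and sequence outside transcripts 18.4%. Over all replicate 2 promoter peaks these shares were 46.2%, 13.7%, 13.2%, 7.06% and 19.8%. Windows of 2 or more protein-coding genes were reached by 345 members, 12.9%.

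**Figure D4:**
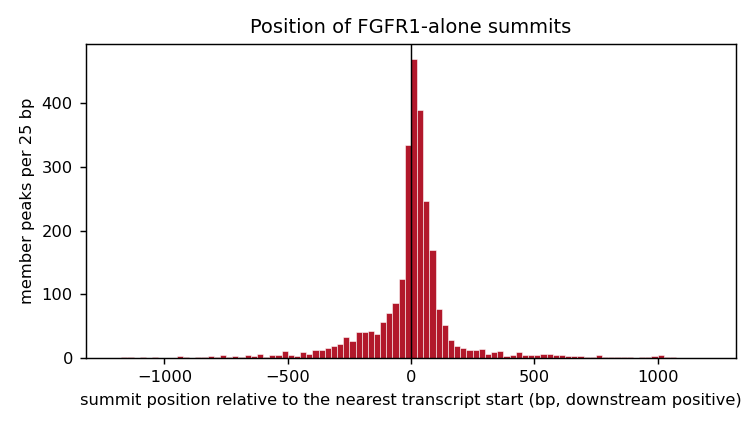
Distance in bp from each FGFR1-alone summit to the nearest annotated transcript start (horizontal axis, positive values downstream), counted per 25 bp (vertical axis) over 2679 members. The counts peak just downstream of the start, and 47.6% of the summits fall within the first 100 bp of a transcript.

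The windows at member summits had a median GC content of 67%, equal to that of all replicate 2 promoter peaks, against 54% at all transcript starts. The median ratio of observed to expected CpG was 0.862, against 0.932 in peaks with FGFR1 in LIF and 0.853 in all replicate 2 promoter peaks. In 0.896% of members, and in 0.968% of all replicate 2 promoter peaks, purines and pyrimidines alternated over 20 bp or more.

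Most of the 13 words were found at similar shares in members and in the other classes. The GC box lay in 790 member windows, 29.5% (27.8 to 31.3), against 28.5% of all replicate 2 promoter peaks and 15.6% of all starts. The ETS word CCGGAAGT lay in 3.06% of members, 2.82% of promoter peaks and 1.80% of starts. For the YY1 word AAGATGGCG these shares were 2.87%, 2.26% and 1.08%. The Myc type E-box CACGTG gave 3.47%, 3.37% and 2.20%, and the cAMP response element 1.05%, 0.959% and 0.644%. The NRF1 word lay in 1.38% (0.974 to 1.90) of members, against 2.18% (1.64 to 2.82) of peaks with FGFR1 in LIF, 1.39% of promoter peaks and 0.565% of starts.

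Letters linked to nuclear receptors were not frequent. The core word AGGTCA lay in 90 member windows, 3.36% (2.71 to 4.11), against 3.42% of all replicate 2 promoter peaks and 5% of starts. Its longer form AAAGGTCA, the Nur77 response element NBRE, which contains the core word, lay in 2 windows, 0.0747% (0.00904 to 0.269). It was rare in all replicate 2 promoter peaks too, at 0.16%, and lay at 0.362% of starts. The TATA box was found in 0.821% of members, 0.841% of promoter peaks and 4.16% of starts. For the NFY word these shares were 1.46%, 1.34% and 1.52%, and for the RFX word GTTGCCATG they were 0.187%, 0.177% and 0.235%. The CTCF word gave 0.299%, 0.446% and 0.216%, and the ZBTB33 word TCTCGCGA 0.411%, 0.614% and 0.340%. None of the 13 words was present in 1578 member windows, 58.9%, and in 60.2% of all replicate 2 promoter peaks, and the absence of a word says only that these letters are not in the window.

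Groups of genes were then examined. Over all protein-coding genes, 7535 had a reproduced FGFR1 promoter peak in RA and 37.3% of those had a member, which is the figure to read each list against. The lists were written with earlier results of these data known and no list was tested. In the retinoid list, 8 of 22 genes had a reproduced peak and all 8 of them had a member: Cyp26a1, Rarb, Ncor1, Nrip1, Crabp1, Rara, Rarg and Rxra. FGFR1 in LIF had a promoter peak at 1 gene of the list, and the share over all protein-coding genes is not given here. In the list of nuclear receptor genes, 11 of 34 had a reproduced peak and all 11 had a member, 4 of them shared with the retinoid list.

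Among the receptors for RA, Rarb stood highest with its 54.2 and 24.3 in replicates 2 and 1. Rara had a −log10 p of 32.6 in replicate 2 and 9.55 in replicate 1, Rarg 13.0 and 9.08, and Rxra 12.7 and 8.43. The latter 3 peaks were weaker in replicate 1 than the median member. Of the corepressor genes, Ncor1 had 52.1 and 23.2 and Nrip1 had 31.2 and 14.5. A Nur77 peak in RA lay 811 bp from the Ncor1 member and an RXR peak in RA 359 bp from that of Nrip1. Crabp1, which encodes a cytoplasmic RA-binding protein, had 21 and 11.7. RXR in LIF had a peak over the members of Cyp26a1, Rarb, Ncor1, Nrip1 and Crabp1 and not over those of Rara, Rarg and Rxra.

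The orphan and metabolic receptors ranged in replicate 2 from 26.6 at Nr6a1 to 10.2 at Nr1d1. Nr6a1, a receptor of early embryos and germ cells, had a −log10 p of 26.6 in replicate 2 and 11.5 in replicate 1, and Nr1d2, a clock receptor, had 23.9 and 11, with a Nur77 peak in RA 199 bp away. The testicular receptors Nr2c2 and Nr2c1 had 20 and 18.6 in replicate 2, Nr1h3 (LXRα) 15.7, Esrrb 13.2 and Nr1d1 10.2. In replicate 1 these 5 ranged from 10.9 to 16.2.

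With every list reduced to the same number of peaks, Cyp26a1, Ncor1 and Rarb were the retinoid genes that remained with a reproduced peak and a member. When absence was required within 1000 bp, 5 of the 8 retinoid genes with a reproduced peak kept a member, and Rarb, Ncor1 and Nrip1 did not. When peaks were matched by summits, 5 of 6 did. In the nuclear receptor list, the genes that remained with equal list sizes were Nr1h3 and Rarb, both with a member. When absence was required within 1000 bp, 8 of the 11 nuclear receptor genes with a reproduced peak kept a member.

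**Figure D5:**
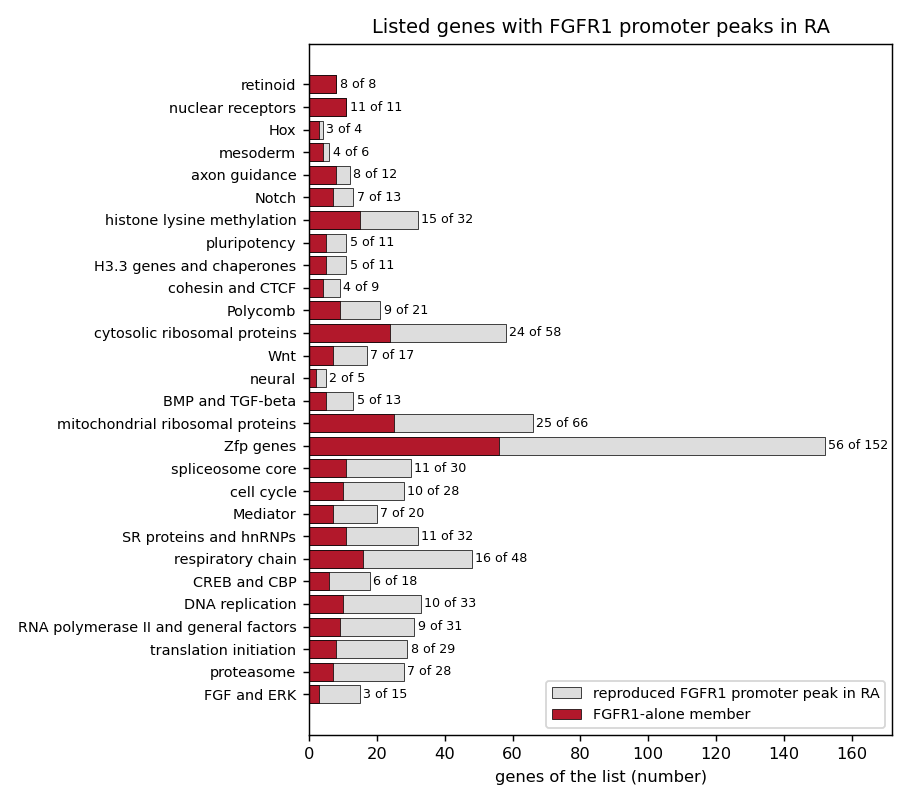
For each gene list (rows), the number of genes with a reproduced FGFR1 promoter peak in RA (grey bar) and of those with an FGFR1-alone member (red bar), with both counts printed. The rows are ordered by the ratio, from 8 of 8 retinoid genes and 11 of 11 nuclear receptor genes to 3 of 15 genes of FGF and ERK signalling; over all protein-coding genes the ratio was 37.3%.

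Developmental genes gave small numbers. Of 39 Hox genes, 4 had a reproduced peak and 3 had a member: Hoxa4, with a −log10 p of 17.5 in replicate 2 and 12.6 in replicate 1, Hoxb9, with 16.7 and 8.80, and Hoxd9, with 10.4 and 13.4. The nearest peak of FGFR1 in LIF, RXR in RA or Nur77 in RA to any of these 3 members lay 7090 bp away. Of 18 mesodermal genes, 6 had a reproduced peak and 4 a member, namely Lfng, Notch1, Hspg2 and Nrarp. The study had named these 4 as mesodermal genes bound by FGFR1, so this count is not independent of its results. Lfng, Notch1 and Nrarp are counted in the Notch list too. Lfng and Nrarp, which tune Notch signalling, had 35.4 and 38.8 in replicate 2 and 13.3 and 8.43 in replicate 1. Notch1 had 22.3 and 16.5. Hspg2, the gene of perlecan, had 21.7 and 21.2.

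Of 30 neural genes, 5 had a reproduced peak and 2 a member. These were Tubb3, the neuronal tubulin gene, with 20.1 in replicate 2 and 7.63 in replicate 1, and Cdx1, a homeobox gene that responds to RA, with 10.4 and 7.78 and an H3.3 peak. Of 27 pluripotency genes, 11 had a reproduced peak and 5 a member. Klf5 had 57.9 and 15.2, Tbx3 42.4 and 8.49, Ctcf 19.6 and 11.8, Zfx 16.8 and 7.89 and Esrrb 13.2 and 10.9. An RXR peak in RA lay 385 bp from the Klf5 member.

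The ratios of the signalling lists rest on 12 to 17 genes each, without intervals, and differences between them were not tested. In the Notch list 7 of 13 genes with a reproduced peak had a member, led by Notch2 (34.9 and 15.2 in replicates 2 and 1), the presenilin gene Psen2 (29.4 and 14.3), Lfng and Notch1. In axon guidance it was 8 of 12, led by Ephb3 (62.7 and 16), Plxna3 (31.1 and 14.7), Sema4b (19.3 and 11.5) and Epha7 (40.1 and 10.3). In the Wnt list it was 7 of 17, with the receptor genes Fzd7 (41.8 and 19.6), Fzd2 (18.3 and 17.2) and Fzd9 (15.9 and 9.72) and the kinase gene Gsk3b (13.5 and 10.0). The BMP and TGF-β list gave 5 of 13, among them the inhibitor genes Id3 (25.6 and 15.6) and Id1 (23.7 and 12.1), Smad3 (16.2 and 13.6) and Ski (19.9 and 10.2). The list of FGF and ERK signalling, the pathway of the receptor itself, stood lowest with 3 of 15. They were Dusp4, a phosphatase gene (23.7 and 11.5), Gab1 (14.8 and 15.4) and Fgfr4 (11.7 and 10.1). FGFR1 in LIF had a promoter peak at 14 of the 33 listed, against 21 of 38 SR protein and hnRNP genes and 1 of 22 retinoid genes. The share over all protein-coding genes is not given here.

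Chromatin genes were near or above the overall ratio. Of 32 genes of histone lysine methylation with a reproduced peak, 15 had a member, among them the demethylase genes Kdm5b (80.7 and 23.7), Phf8 (35.9 and 17.5) and Kdm6b (23.2 and 12.4) and the methyltransferase gene Setd2 (20.8 and 12.3). Of 21 Polycomb genes 9 had one, led by Cbx2 (48.7 and 19.9), Rybp (23.8 and 13.1), Phc3 (21.5 and 11.7) and Rbbp4 (19.1 and 14.0). For cohesin and CTCF it was 4 of 9: Smc3 (68.8 and 12.3), Ctcf, Mau2 (13.3 and 11.2) and Rad21 (28.6 and 8.55). For H3.3 genes and histone chaperones in general it was 5 of 11. H3f3a, which encodes H3.3 itself (43.0 and 14.3), Dek (17.1 and 15.8), Chaf1a (15.8 and 12.1) and Asf1a (38.3 and 10.1) led. For CREB and CBP it was 6 of 18, led by Atf2 (38.2 and 22.9), Crtc2 (30.1 and 14.5), Rps6ka2 (25.2 and 13.7) and Rps6ka1 (17.8 and 15.5).

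Lists of genes used by every cell came next, with ratios near or below the overall 37.3% for most of them. Of 58 cytosolic ribosomal protein genes with a reproduced peak, 24 had a member, led by Rpl18 (92.9 and 24.6), Rpl13 (74.3 and 22.0), Rpl13a (58.7 and 17.8) and Rpl35a (71.1 and 17). Of 66 mitochondrial ribosomal protein genes 25 had one, led by Mrpl1 (63.7 and 16.7), Mrps6 (85.3 and 16.6), Mrps21 (42.8 and 15.8) and Mrps27 (36.4 and 15.0). The Mrps6 member also lies at Slc5a3. The respiratory chain gave 16 of 48, with Ndufa13 (51.2 and 22.7), Atp5b (56.8 and 20.8), Ndufb6 (69.7 and 18.4) and Atp5c1 (48.8 and 13.7).

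Splicing lists gave 11 of 32 for SR proteins and hnRNPs, with Srsf10 (40.6 and 18.1), Srsf3 (102 and 16.2), Hnrnpl (34.9 and 21.7) and Srsf4 (27.7 and 14.8), and 11 of 30 for the spliceosome core, with Prpf19 (45.5 and 19), Sf3b3 (39.1 and 19.5), Snrpd3 (49.1 and 14.3) and Sf3b6 (32.5 and 14.0). RNA polymerase II and general factors gave 9 of 31, with Ccnh (45.4 and 19.6), Taf11 (24.7 and 17.7) and Mnat1 (24.5 and 13.4) after Gtf2b. Mediator gave 7 of 20, with Med29 (48.1 and 15.4), Med31 (26.6 and 15.7), Med6 (31.7 and 11.9) and Med8 (21.2 and 15.3). Translation initiation gave 8 of 29, with Eif3j1 (76.4 and 23.7), Eif3g (27.4 and 13.8), Eif1ax (26.5 and 13.5) and Eif5b (21.7 and 12.7). The proteasome gave 7 of 28, with Psma7 (29.9 and 14.1), Psma3 (28.7 and 15.4), Psmd13 (25.7 and 15.8) and Psmb7 (25.6 and 12.4). Apart from FGF and ERK signalling, the lowest ratios were those of the proteasome, translation initiation and RNA polymerase II lists.

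Genes of proliferation lay close to the overall ratio. Of 28 cell cycle genes with a reproduced peak 10 had a member, among them the checkpoint kinase gene Chek1 (57.8 and 17.8), Rbl1 (26.3 and 13.7), Cdkn2d (27.7 and 13.1) and Wee1 (24.4 and 12.8). Of 33 DNA replication genes 10 had one, with Rpa3 (35.2 and 13.0), Pold1 (46.2 and 12.5), Prim2 (34.1 and 12.3) and Mcm7 (22.1 and 17.4). Zinc finger genes named Zfp and a number, 365 in all, had a reproduced peak in 152 cases and a member in 56, led by Zfp236 (31.4 and 15.2), Zfp873 (30.6 and 17.6), Zfp58 (29.8 and 15.1) and Zfp930 (29.5 and 14.9).

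Most of the 2814 genes, 2693, had 1 member, 119 had 2 and 2 had 3. The latter were Atxn2l, an RNA-binding protein gene with 3 peaks along chr7:126501999-126503829, and Mtus1, a microtubule gene. The members of Atxn2l had replicate 2 −log10 p values of 35.8, 66.6 and 24.1, and those of Mtus1 14.9, 9.60 and 13.0. After them many genes had 2, and 1110032A03Rik comes next by name.

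Members were found on chromosomes 1 to 19 and X. Chromosome X stood apart. There, 62 of 89 reproduced promoter peaks were members, 69.7% (59.0 to 79.0), against 36.0% (34.9 to 37.1) on the other chromosomes and 30.6% to 44.8% on each of them. The lists that the rule used to remove peaks held few promoter peaks on X. X made up 0.837% of the promoter peaks of FGFR1 in LIF, 0.944% of RXR in RA and 0.703% of Nur77 in RA, but 2.54% of those of FGFR1 replicate 2 and 3.54% of all distinct transcript starts. In FGFR1 replicate 1 it was 1.09%. H3.3 in RA had a peak at 3 of the 62 X members, 4.84% (1.01 to 13.5), against 9.03% of all members. RXR in LIF had one at 11, 17.7% (9.20 to 29.5), against 48.5% of all members. These lists, too, held few promoter peaks on X, 0.592% of those of H3.3 in RA and 0.598% of those of RXR in LIF. Plxna3, Phf8, Kdm6a, Eif1ax and Zfx are among the listed genes with a member on X. Whether the low X shares of the lists that removed peaks play a part in the X excess was not tested.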

How the data were processed

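The authors aligned the reads of each library to mm10 with Bowtie 1.0, kept uniquely aligned reads and called peaks per library with MACS2 at a p limit of 1e-05, naming no control. Of the deposited columns, the score, the fold (a ratio of summit pileup to local background), the −log10 p and the −log10 q come from the authors' MACS2 run. No test was made, since all groups but FGFR1 in RA have 1 library.

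Peaks were compared by overlap of at least 1 bp, and promoters were windows of 1000 bp either side of 141767 GENCODE M21 transcript starts. A member bears the name of the protein-coding gene with the nearest start among the windows it reaches, otherwise of any gene. Named are the 20 members highest by the lower of their percentile ranks of −log10 p in the replicates, up to 4 genes of each of 28 lists (all genes with a member in the retinoid, pluripotency, Hox, neural and mesodermal lists), the 3 genes with most members and the members at the edges of the rule. The nuclear receptor genes beyond 4, Kdm6a, Zfx on X, Acly, Triap1, Cbr1 and the X members were named after their values were seen. The members and lists were chosen with earlier results of these data known.

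Whole fragments at each summit were solved from fold and −log10 p, within 0.002 of the deposited −log10 p for all peaks. Shares have exact Clopper-Pearson intervals at 95%. Sequences come from GRCm38, and none was taken from chromosome 18. A few items that these rules select are not reported here. Tools were Python 3.11.15, pandas 2.3.3, scipy 1.17.1, pysam 0.24.0, bedtools 2.31.1 and matplotlib 3.10.9, and the overlap and depth steps were tested on simulated data. The alternatives were other strength limits, equal list sizes, other matching, a margin for absence, other promoters, chromosomes, tract removal and leaving out each FGFR1 RA replicate. The groups of strength, the direct repeats and the X comparison were added after the data were seen.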

Additional observations from a re-analysis of the deposited data

How the results depend on the processing

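Of 12 alternatives, 5 moved none of the 6 main values by more than its interval or 1.5 times (a −log10 q limit, 500 bp promoters, protein-coding starts, main chromosomes and no tract peaks). The −log10 q limit changed none of the main counts, and the main chromosomes held all 2679 members. These settings therefore say nothing of how stable the values are. With a −log10 p of at least 10 in both replicates there were 1711 members at 1863 genes, 30.5% of the reproduced promoter peaks, with H3.3 at 10.6%, RXR in LIF at 51.7% and Nur77 in LIF at 22.3%. With equal list sizes there were 870 members at 970 genes, 30.3%, with 19.8%, 22.5% and 14.0%. With matching by summits the members were 47.0% of the reproduced peaks, with 6.83%, 35.8% and 16.3%. With an overlap over a fixed part of the shorter peak required, instead of 1 bp, they were 38.2%, with RXR in LIF at 45.9%. With absence required within 1000 bp they were 28.0%. Leaving out one FGFR1 RA replicate gave 6470 to 9215 members at 6040 to 6903 genes, 54.2% to 54.4% of the promoter peaks, with H3.3 at 4.50% to 5.96%, RXR in LIF at 30.7% to 31.2% and Nur77 in LIF at 12% to 13.0%. The cause of each change was not tested. Downstream summits stayed between 56.4% and 62.8%, GC boxes between 26.7% and 33.4%, and listed genes ran from 111 to 607. No paired analysis was possible because no result comes from a test. Depth limits what absence means, as fewer than 4 or 5 fragments at a summit gave no peak in the lists used for it, and the counting intervals do not cover variation between libraries, which for all lists but FGFR1 in RA is unknown.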

Other observations

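Of the 2679 members, 104 lay in no promoter window of a protein-coding gene. Long intergenic RNA genes named 48 of them. The strongest of the 104 was Snhg5, a host gene of small nucleolar RNAs, with a −log10 p of 59.2 in replicate 2 and 18.8 in replicate 1. Among microRNA genes with a member in their promoter window, Mir9-3, a precursor of the neural miR-9, had 11.4 and 8.80, Mir34b and Mir34c shared a member with 13.7 and 16, and Mir148a had 19.1 and 13.3. The member in the window of Mir219a-1 also lies at Ring1, with 12 and 15.2. These microRNAs were picked after their values were seen.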
